A study of Arabidopsis thaliana with 4 samples.

Results

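Jasmonates are lipid-derived hormones that plants make from linolenic acid in plastids and peroxisomes. Lipoxygenases (LOX), allene oxide synthase (AOS), allene oxide cyclases (AOC), the reductase OPR3 and peroxisomal acyl-CoA oxidases carry out the successive steps. The amino acid conjugate jasmonoyl-isoleucine joins the receptor COI1 to JAZ proteins, which otherwise repress MYC2 and related transcription factors, and the JAZ proteins are then degraded. Because MYC2 also turns on JAZ genes, synthesis genes and catabolic genes, many genes of the pathway respond to the hormone themselves, and in seedlings they are known for wound and defence responses and for root growth inhibition.

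The genes described here are synthesis enzymes, JAZ repressors, MYC2, catabolic and modifying enzymes, and targets, chosen by locus from a fixed list of 32. A locus was counted where the Affymetrix array carried a probe set whose annotation named that locus and no other, which held for 28 of the 32, each with 1 probe set, among 22746 probe sets tested. They comprised 10 synthesis genes, 10 JAZ genes, MYC2, 5 genes of catabolism and modification and 2 targets. The other 4 loci, AOC1 with AOC2 and VSP1 with VSP2, shared a probe set in pairs and are given apart.

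Whole 5-day-old seedlings of Arabidopsis thaliana, wild type of accession Columbia 0, were raised in long days on diluted Murashige and Skoog medium supplied with 0.1% sucrose. The control group grew without ASP and the other group with it. ASP is a synthetic piperazine that carries a bromophenoxyacetyl group and a fluorophenylsulfonyl group, and no dose is stated in the labels. Each of the 2 groups held 2 arrays, called biological replicates in the labels, which do not say whether they were separate cultures. P-values therefore measure the spread among these 4 samples only.

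Between 15075 and 15706 probe sets per array were called present, and array medians lay between 7.50 and 7.53 in log2 signal. Green-tissue markers were brighter with ASP, with 4 of 4 measured genes higher. The log2 of their summed linear signals, which the brightest genes dominate, was 15.35 and 15.50 against 15.07 and 15.16 in control. Of 7 root markers 2 were higher and 5 lower, and the log2 of their summed linear signals was 11.38 and 11.39 with ASP against 11.46 and 11.89. All of these shoot and root markers were called present on all 4 arrays, while 3 of 4 flower markers were called absent on all 4. None of the shoot and root markers passed limma's test adjusted over the whole array (adjusted p from 0.671 to 0.967). The groups overlapped in the root markers PIN2, COBL9, SCR, PRP3 and SMB. The part of these marker differences in the values below was not tested, and in whole seedlings fewer cells of a type and less RNA per cell cannot be told apart.

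The comparison of ASP with control asks whether transcripts of the jasmonate pathway differ in seedlings grown on the compound. None of the 28 genes passed limma's test adjusted over the whole array, and neither did any other probe set (0 of 22746, 0%, at a Benjamini-Hochberg adjusted p under 0.05, smallest adjusted p 0.265). At an unadjusted p under 0.05 there were 3 of the 28, the sulfotransferase gene ST2A higher and the cyclase gene AOC3 and the aminotransferase gene TAT3 lower, against 7.42% of all probe sets. With an intensity trend, in which limma's prior variance follows brightness, 0 of the 28 passed the adjusted test, against 72 probe sets or 0.317%, and 4 had an unadjusted p under 0.05, against 9.47%. These were 1 higher, ST2A (background 4.69%), and 3 lower, AOC3, TAT3 and JAZ3 (background 4.78%).

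The 28 genes had no common direction. Means with ASP were higher in 13 and lower in 15, and the median log2 fold change, ASP minus control, was -0.04, beside -0.02 over all probe sets. Without control replicate 2 this median was 0.06. Both ASP arrays lay above both control arrays in 6 genes, beside 18.5% of all probe sets, and below both in 6 genes, beside 20.9%. Both counts make 12 of 28, or 42.9%, beside 39.4% of all probe sets, so the share is near the background. Among the 19 genes called present on all 4 arrays the groups did not overlap in 9, beside 41.9% of all probe sets so called, with ASP above in 4 (beside 21.4%) and below in 5 (beside 20.5%). A measured difference of at least 2-fold was higher with ASP in 1 gene, JAZ5 (beside 4.78%), and lower in 3, LOX4, JAZ8 and TAT3 (beside 7.27%), and only TAT3 of these 4 was called present on any array. None of the 19 reached 2-fold, beside 1.03%. Over the 28 genes, control arrays differed from each other by a median of 0.31 log2 units and ASP arrays by 0.28, beside 0.26 on both sides over all probe sets. The median size of the difference between group means was 0.33, beside 0.23 over all probe sets.

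**Figure D1:**
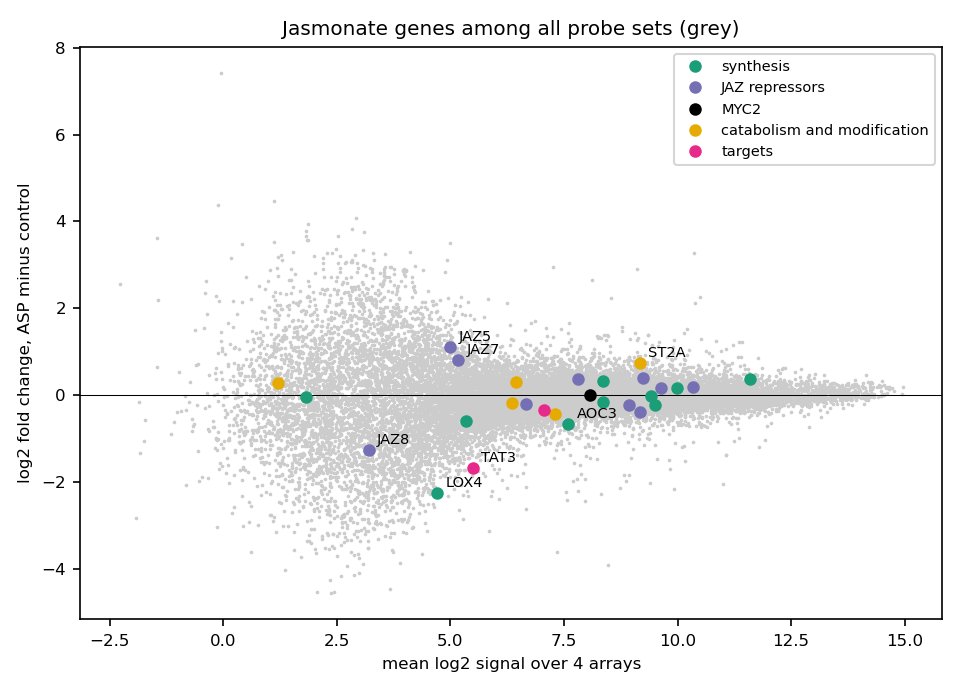
Log2 fold change (ASP minus control, vertical axis) against the mean log2 signal over 4 arrays (horizontal axis) for 22746 probe sets in grey, with the 28 jasmonate genes coloured by class. Most coloured points lie inside the grey band at their brightness, the dim genes LOX4, JAZ8, JAZ5 and TAT3 have the largest differences, and ST2A (0.74) and AOC3 (-0.66) have the largest among genes present on all 4 arrays.

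Detection differed among the classes and sets how much each gene can tell. Of the 28 genes, 19 were called present on all 4 arrays, 7 of 10 synthesis genes and 7 of 10 JAZ genes among them. LOX4, DAD1, JAZ8 and JMT were called absent on all 4, which was the case for 24.9% of all probe sets, and JAZ5 was called present on none. No fold is given for these 5. The other 4, LOX3, JAZ7, CYP94B1 and TAT3, were called present on some arrays only.

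Among the synthesis genes, means were higher in 3 of 10 and lower in 7 (median log2 fold change -0.11). Among the 7 present on all 4 arrays 3 were higher and 4 lower with a median of -0.03, and leaving out 1 array moved the median of the 10 between -0.18 and -0.05. The first step is the oxygenation of linolenic acid by 13-lipoxygenases. LOX2 (AT3G45140), the plastid enzyme behind most wound-induced jasmonate in leaves, had a log2 signal of 8.03 and 8.35 in control and of 8.65 and 8.37 with ASP. The groups did not overlap, but the upper control array and the lower ASP array were almost level, and the difference was 0.32 ± 0.21 (log2 fold change ± SE from limma, adjusted p 0.815). LOX6 (AT1G67560), the lipoxygenase known for the first burst after wounding and for roots, was 8.47 and 8.40 against 8.22 and 8.32, a log2 fold change of -0.17 ± 0.14.

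LOX3 (AT1G17420), a wound-induced lipoxygenase, had signals of 5.22 and 6.06 in control and 5.29 and 4.81 with ASP, with a present call on 1 array of each group, and its groups overlapped. LOX4 (AT1G72520), the close relative of LOX3, was called absent throughout, and its signal of 1.299 on ASP replicate 1 against 5.27 to 6.41 on the other 3 arrays is a difference between values below detection. DAD1 (AT2G44810), a phospholipase known from stamens that frees linolenic acid, was between 1.32 and 2.27 on the 4 arrays, all called absent. In the gene order of assembly TAIR10.1, LOX3 lies 2 protein-coding genes from JAZ5 and LOX4 lies 6 from JAZ6.

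AOS (AT5G42650), the enzyme that commits the lipid hydroperoxide to the jasmonate branch, was nearly level, at 9.30 and 9.58 in control and 9.33 and 9.49 with ASP. Its log2 fold change of -0.03 had a 95% interval from -0.58 to 0.52, so differences of up to that size either way were not excluded. The allene oxide cyclases act next and fix the stereochemistry of the product, and none of their probe sets passed the test. AOC3 (AT3G25780) was 7.86 and 7.99 in control and 7.14 and 7.39 with ASP. Both ASP arrays were lower, 1.58-fold on average, with a log2 fold change of -0.66 ± 0.17 (limma, unadjusted p 0.0254, adjusted p 0.604).

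The probe set shared by AOC1 and AOC2, whose genes stand beside AOC3 in 1 row on the chromosome, had a mean that was higher with ASP, at 9.05 and 9.20 in control and 9.55 and 9.33 with ASP. That difference was 0.32 ± 0.17 (log2 fold change ± SE, limma adjusted p 0.777), and the signal cannot be split between both genes. AOC4 (AT1G13280), on its own elsewhere, was 10.06 and 9.77 against 10.00 and 10.14, with overlapping groups. Within an array, the log2 difference between the AOC1 and AOC2 probe set and that of AOC3 was 1.19 and 1.21 in control and 2.42 and 1.94 with ASP. This contrast was picked after its values were seen and was not tested.

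OPR3 (AT2G06050), the reductase that acts on 12-oxo-phytodienoic acid in peroxisomes, was 9.58 and 9.64 in control and 9.49 and 9.29 with ASP, a log2 fold change of -0.22 ± 0.16. ACX1 (AT4G16760), the acyl-CoA oxidase of the following chain-shortening steps, was 11.24 and 11.56 against 11.97 and 11.57. Both ASP arrays were above control, although ASP replicate 2 exceeded control replicate 2 by less than 0.01, and the log2 fold change was 0.37 ± 0.24 (limma adjusted p 0.810). Along the synthesis route, higher means thus stood at LOX2, AOC4, ACX1 and the probe set shared by AOC1 and AOC2. Lower means stood at LOX3, LOX6, AOS (nearly level), AOC3 and OPR3, apart from the undetected LOX4 and DAD1. None of these passed the adjusted test.

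**Figure D2:**
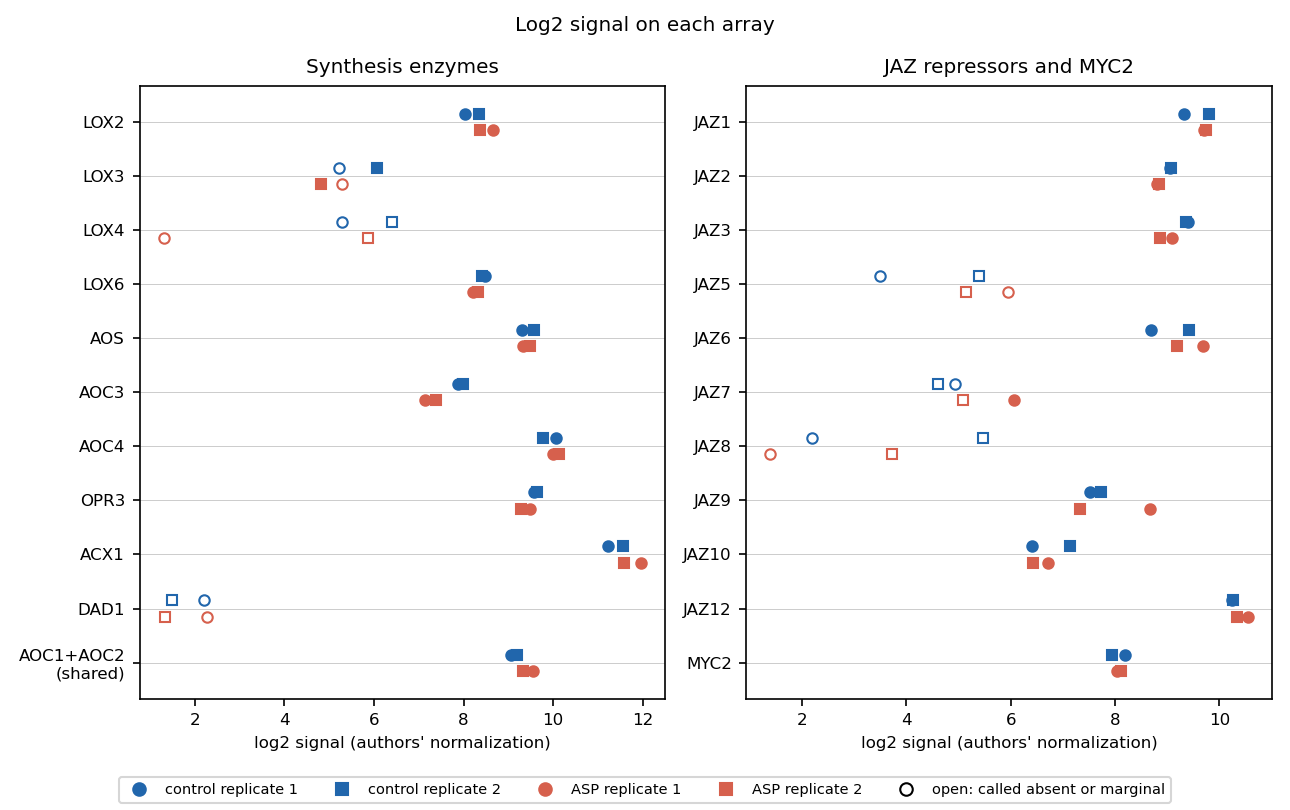
Log2 signal (horizontal axis) on each of the 4 arrays for the 10 synthesis genes and the probe set shared by AOC1 and AOC2 (left) and for the 10 JAZ genes and MYC2 (right), with control in blue, ASP in red, circles for replicate 1 and squares for replicate 2. Open symbols are absent or marginal calls. AOC3 separates with ASP lower, AOC1 and AOC2 with ASP higher, and JAZ5, JAZ6, JAZ9 and JAZ10 show arrays of 1 group far apart.

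The JAZ repressors were split, with 6 of 10 higher and 4 lower and a median log2 fold change of 0.18. The sign of this median rested on single arrays, since it was -0.03 without control replicate 1 and -0.01 without ASP replicate 1. Their arrays of 1 group also differed. Within control the median difference was 0.39 log2 units and within ASP also 0.39, with the dim JAZ genes included. In the 7 JAZ genes present on all 4 arrays these medians were 0.21 and 0.24, beside 0.17 and 0.18 over all probe sets so called. Control replicate 2 was above control replicate 1 in 8 of 10 genes, beside 51.4% of all probe sets.

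JAZ3 and JAZ2, both repressors with the degron through which COI1 takes up JAZ proteins, had replicates close together in control. JAZ3 (AT3G17860) was 9.39 and 9.35 in control and 9.09 and 8.85 with ASP, 1.32-fold lower on average, with a log2 fold change of -0.40 ± 0.16 (limma, unadjusted p 0.0825, adjusted p 0.724). With the intensity trend its unadjusted p was 0.0202 and its adjusted p 0.402. JAZ2 (AT1G74950) was 9.05 and 9.07 against 8.81 and 8.84, a small difference of -0.24 ± 0.13 that was larger than the spread of either group, with an adjusted p of 0.785 by limma.

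JAZ12 (AT5G20900), a repressor that is expressed without stimulus, was 10.23 and 10.26 in control and 10.55 and 10.34 with ASP, a log2 fold change of 0.20 ± 0.16. JAZ1 (AT1G19180), a repressor degraded through COI1, was 9.33 and 9.79 against 9.71 and 9.73, both ASP arrays falling between the control arrays. JAZ6 (AT1G72450) was 8.69 and 9.41 against 9.68 and 9.19, and JAZ10 (AT5G13220), a strongly wound-induced repressor with splice forms that resist degradation, was 6.41 and 7.13 against 6.72 and 6.43. In JAZ1, JAZ6 and JAZ10 the control arrays alone differed by 0.47 to 0.72 log2 units, and the groups overlapped.

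JAZ9 (AT1G70700) had a log2 signal of 8.66 on ASP replicate 1 and between 7.33 and 7.73 on the other 3 arrays. Its log2 fold change of 0.37 ± 0.54 came from that 1 array, and it was -0.29 without it. JAZ7 (AT2G34600), a repressor that rises strongly in wounded or carbon-starved leaves, was called absent on both control arrays (4.94 and 4.61), present on ASP replicate 1 (6.05) and marginal on ASP replicate 2 (5.09). Its groups did not overlap, and the mean as measured was 1.74-fold higher with ASP (limma adjusted p 0.773). The dimmest present probe sets on the control arrays, taken as the limit of detection, were at 3.96 and 3.74. Both lay below the signals of JAZ7 there, so this limit left the fold unchanged. JAZ7 was nonetheless called absent on both control arrays, so this low limit says little about its detection there. The log2 fold change of JAZ7 was 0.80 as measured and 0.21 with linear signals under 50 set to 50.

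JAZ5 (AT1G17380) ran from 3.50 to 5.39 in control and from 5.14 to 5.94 with ASP, with a marginal call on ASP replicate 1 and absent calls on the other 3 arrays. JAZ8 (AT1G30135), a repressor that lacks the canonical degron and is therefore stable, was between 1.39 and 5.48 with absent calls throughout. No level above detection was measured for either with these calls.

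MYC2 (AT1G32640), the basic helix-loop-helix factor that JAZ proteins hold in check, was level. It was 8.19 and 7.94 in control and 8.03 and 8.11 with ASP, so that both ASP arrays fell between the control arrays. The log2 fold change was 0.00 with a 95% interval from -0.50 to 0.50 (limma adjusted p 0.996), which leaves room for differences of up to about that size.

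The catabolic and modifying enzymes convert the hormone to other forms, and means were higher in 3 of 5 (median log2 fold change 0.28). This median includes JMT (AT1G19640), which was not detected, and turned to -0.28 without ASP replicate 1 and -0.10 without control replicate 2. ST2A (AT5G07010), a sulfotransferase that sulfates 12-hydroxyjasmonate, was 8.74 and 8.87 in control and 9.72 and 9.37 with ASP. Both ASP arrays were well above both control arrays, 1.67-fold on average. The log2 fold change was 0.74 ± 0.20 (limma, unadjusted p 0.0268, adjusted p 0.604), with a 95% interval from 0.15 to 1.33. It was the largest positive difference among the 19 genes present on all 4 arrays.

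With the intensity trend ST2A had rank 216 among 22746 probe sets by p, with an unadjusted p of 0.00137 and an adjusted p of 0.144, the smallest of the 28 genes. Leaving out 1 array at a time gave log2 fold changes from 0.57 to 0.92, all higher with ASP.

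Cytochrome P450 enzymes oxidise jasmonoyl-isoleucine, and their 3 genes differed in direction, none past the test. CYP94B3 (AT3G48520), which hydroxylates the conjugate, was 6.56 and 6.32 in control and 6.35 and 6.16 with ASP. CYP94C1 (AT2G27690), which oxidises it further to a carboxy form, was 7.19 and 7.85 against 7.21 and 6.96, a log2 fold change of -0.43 ± 0.30 with overlapping groups, which was -0.10 without control replicate 2 and -0.76 without control replicate 1. CYP94B1 (AT5G63450), a second hydroxylase, was 6.41 and 6.17 against 6.73 and 6.43, a log2 fold change of 0.29 ± 0.20 with both ASP arrays above control and an absent call on control replicate 2. JMT, the methyltransferase that forms methyl jasmonate, was called absent on all arrays with signals from 0.51 to 2.07.

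Both measured targets had lower means with ASP, TAT3 by a wide margin. TAT3 (AT2G24850), a tyrosine aminotransferase gene used as a marker of jasmonate response, had a log2 signal of 6.43 and 6.26 in control, called present on both arrays. With ASP it was 5.11 and 4.19, called absent on both. As measured, the mean was 3.23-fold higher in control (limma, unadjusted p 0.0175, adjusted p 0.560, and adjusted p 0.338 with the intensity trend). The dimmest present probe sets on the ASP arrays, at 4.00 and 3.60, lay below these signals, so that limit left the fold unchanged. Being the dimmest of all present probe sets, it is a low limit. TAT3 was called absent above it, so it says little about whether these signals were detected. The size depended on how dim signals were treated, since the log2 fold change was -1.69 as measured and -0.70 with linear signals under 50 set to 50. It was negative whichever array was left out, from -2.15 to -1.23.

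CORI3 (AT4G23600), a cystine lyase gene induced by coronatine, the bacterial mimic of jasmonoyl-isoleucine, was 6.66 and 7.80 in control and 6.83 and 6.95 with ASP. Its control arrays differed by 1.14 log2 units, more than its group means did, and its log2 fold change of -0.35 ± 0.46 became 0.22 without control replicate 2. The probe set shared by VSP1 and VSP2, vegetative storage proteins that are classic jasmonate targets of leaves, was called absent on all 4 arrays, with signals from 2.199 to 5.03 that differed as much within a group as between groups. Of the 4 listed target loci, TAT3 and CORI3 were therefore the only ones called present on any array.

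**Figure D3:**
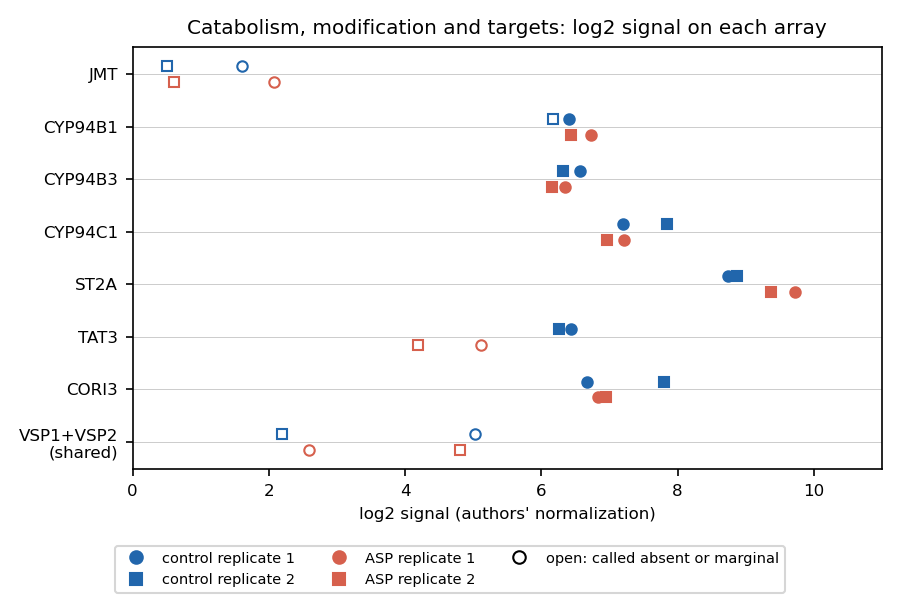
Log2 signal (horizontal axis) on each array for the 5 catabolic and modifying enzymes, the 2 targets and the probe set shared by VSP1 and VSP2, with control in blue, ASP in red, circles for replicate 1, squares for replicate 2 and open symbols for absent or marginal calls. ST2A lies to the right with ASP, TAT3 lies to the left with absent calls on both ASP arrays, and CORI3 has 1 control array far above the other 3 arrays.

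**Figure D4:**
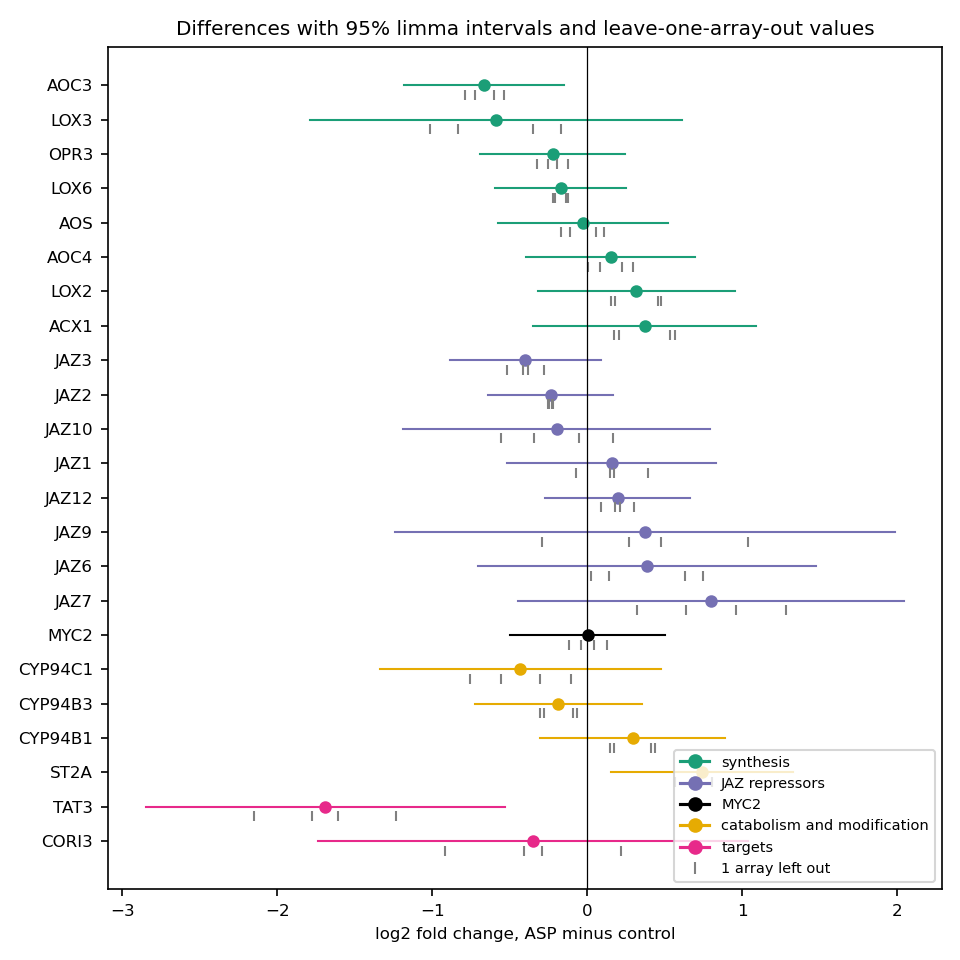
Log2 fold change, ASP minus control (horizontal axis), for the 23 genes called present on at least 1 array, coloured by class, with 95% limma intervals as lines and the values after leaving out 1 array at a time as grey ticks. The intervals of ST2A, AOC3 and TAT3 lie to 1 side of 0 before adjustment, and in 17 of the 23 genes all 4 ticks lie on the side of the full value.

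The direction of 6 of these 23 genes turned when 1 array was left out. AOS, JAZ10, MYC2 and CORI3 turned without control replicate 2, JAZ1 without control replicate 1, AOS and JAZ9 without ASP replicate 1, and MYC2 without ASP replicate 2. Control replicate 2 exceeded control replicate 1 by at least 0.65 log2 units in 8 of the 28 genes, LOX3, LOX4, JAZ5, JAZ6, JAZ8, JAZ10, CYP94C1 and CORI3. In 5 of these 8 ASP replicate 1 had the higher signal of its own group, and in LOX4, JAZ8 and CORI3 it was ASP replicate 2. LOX4, JAZ5 and JAZ8 among them were present on no array. These genes were picked after their values were seen, so they describe the 4 arrays and no more.

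**Figure D5:**
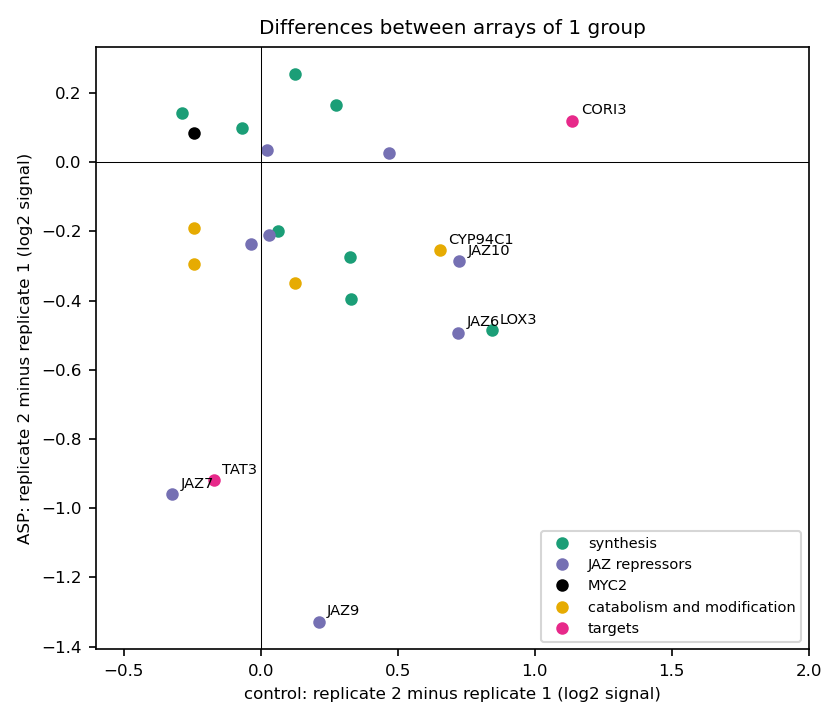
Difference between the arrays of 1 group for the 23 genes called present on at least 1 array and coloured by class, replicate 2 minus replicate 1 in log2 signal, with control on the horizontal and ASP on the vertical axis. CORI3, LOX3, JAZ10, JAZ6 and CYP94C1 lie far to the right, higher on control replicate 2, and JAZ9, JAZ7 and TAT3 lie low, higher on ASP replicate 1.

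The rest of the pathway was read from a list of 48 further genes, 40 of which had a probe set of their own and 26 of which were called present on all 4 arrays. None of the 40 passed limma's adjusted test, with or without the trend. Means were higher in 15 and lower in 25 (median log2 fold change -0.03), and at an unadjusted p under 0.05 there were 1 higher and 1 lower, beside 3.33% and 4.09% of all probe sets. Both ASP arrays lay above both control arrays in 9 (beside 18.5% of all probe sets) and below them in 9 (beside 20.9%). Among the 26 present on all 4 arrays these counts were 3 above (beside 21.4%) and 8 below (beside 20.5%).

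No gene of hormone perception passed the test. The receptor gene COI1 was 9.37 and 9.31 in control and 8.89 and 9.29 with ASP, a log2 fold change of -0.25 ± 0.21. Both ASP arrays were below control, and the value was -0.04 without ASP replicate 1. JAR1, the synthetase that makes jasmonoyl-isoleucine, was 9.92 and 9.44 against 9.60 and 9.76, a log2 fold change of 0.00 with a 95% interval from -0.72 to 0.72. MYC3 and MYC4, which act beside MYC2, had log2 fold changes of -0.16 ± 0.19 and -0.42 ± 0.38, and that of MYC4 was 0.04 without ASP replicate 1. JAZ4 was called present on no array.

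Of the 6 further genes with the smallest p among those present on at least 2 arrays, 5 were lower. LOX5, a 9-lipoxygenase of roots outside the jasmonate route, was 6.68 and 6.66 in control and 6.28 and 6.198 with ASP, a log2 fold change of -0.43 ± 0.14 (limma, unadjusted p 0.0447, adjusted p 0.664). JAM1, a repressor that competes with MYC2 for its sites, was 7.67 and 7.18 against 6.63 and 7.01, and CLH1, a chlorophyllase gene induced by coronatine, was 7.85 and 7.67 against 7.29 and 7.43. ORA59, the factor in which jasmonate and ethylene meet, was 8.00 and 8.19 against 7.72 and 7.71, and PDF1.2a, the defensin gene it drives, was 6.83 and 6.66 against 6.59 and 5.92. MED25, the Mediator subunit that MYC2 binds, was higher, at 7.53 and 7.76 against 8.09 and 7.77. The adjusted p of the 6 by limma ran from 0.664 to 0.819.

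With the intensity trend 3 of the 40 had an unadjusted p under 0.05, beside 9.47% of all probe sets. They were higher with ASP (beside 4.69%), called absent on both control arrays and named here after their values were seen. JOX3, a 2-oxoglutarate dioxygenase that hydroxylates jasmonic acid and is named JRG21 in the files, was 3.06 and 4.62 in control and 6.04 and 6.09 with ASP, with a present call on ASP replicate 1 only. ERF1, a factor of the ethylene and jasmonate branch, was 4.92 and 3.39 against 6.07 and 5.48, with a present call on ASP replicate 2 only. ANAC055, a MYC2 target of the NAC family, was 5.67 and 6.48 against 7.57 and 6.62. It was called present on ASP replicate 1 and marginal on ASP replicate 2. Their adjusted p by limma with the trend was 0.333, 0.512 and 0.515. The probe set shared by OPR1 and OPR2, reductases related to OPR3, was present on all 4 arrays, at 10.20 and 9.85 in control and 10.58 and 10.48 with ASP. Its groups did not overlap, and its log2 fold change was 0.51 ± 0.19 (limma adjusted p 0.712, and with the trend unadjusted p 0.00632 and adjusted p 0.284), a signal that cannot be split between both genes.

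None of the 28 genes and none of the 40 further genes stood among the 148 probe sets that the authors' deposited table of differing probe sets lists. That table draws on 3 columns per group, and its name points to a cut at 2-fold. None of the 19 genes present on all 4 arrays reached 2-fold here, so for them absence from that table adds little. Past 2-fold here, with the limit of detection, were TAT3 (3.23-fold lower), JOX3 (3.43-fold higher), ERF1 (2.72-fold higher) and ANAC055 (2.04-fold higher). The authors' table lists none of them, which limits what these folds can show, and the reason was not tested.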

How the data were processed

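Seedling RNA was amplified with a 3′ IVT kit for Affymetrix arrays, per the labels' protocols. Per the file headers, the authors deposited each probe set's log2 signal after a normalization they do not name, and whether it was called present, marginal or absent. Trimmed by 2%, linear signals averaged 500 on every array. The deposited series matrix held the same values to within 5e-09. Their deposited list of differing genes gives a p-value and a ratio (fold change) from 3 columns per group, per the file headers. In the workbook 4 columns, 2 of log2 signal, matched no sample by name and were not used here.

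After 64 control probe sets were set aside, 22746 were tested two-sided in R 4.3.3 with limma 3.58.1, fitted by lmFit with neither trend nor block and moderated by eBayes, with Benjamini-Hochberg adjustment over all of them and a threshold of 0.05. Residual degrees of freedom were 2 and prior degrees of freedom 1.34, or 6.06 with the intensity trend. The number of arrays limits the precision. The fits were tested on simulated data. Values are log2 signals, and differences are ASP minus control.

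Where the dimmer group was called absent on both arrays, the fold uses a limit of detection: the brighter mean against the mean, per array, of the higher of the gene's own signal and the dimmest present probe set. Genes called present on no array were given no fold. The members and lists were chosen with earlier results of these data known. All members were named. Every array's value was due for up to 4 genes per class with the smallest p, for log2 fold changes of at least 1 and for calls with the trend. Of the further genes, the 6 with the smallest p present on at least 2 arrays and COI1, JAR1, JAZ4, MYC3, MYC4 and PDF1.2a were named. Symbols of all 32 loci, and gene order, came from RefSeq genes of TAIR10.1. Alternatives covered the prior, a block, filters, normalization, a floor and each array left out.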

Additional observations from a re-analysis of the deposited data

How the results depend on the processing

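Over all alternatives run, 0 of the 28 genes and 0 of the 40 further genes passed an adjusted p under 0.05. Over all probe sets the adjusted test called 0, but 72 with the intensity trend, 18 without the dimmest 30%, 23 among probe sets present on all 4 arrays and 1 with linear values under 50 set to 50. With the trend and 1 array left out it called 9 to 37 (22 and 37 without control replicates 1 and 2, 11 and 9 without ASP replicates 1 and 2). The series matrix values gave 0 too.

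No source states that the arrays are paired, although the column names share the letters A and C between the groups. The differences between replicates 1 and 2 correlated at 0.00 between the groups over all probe sets. The main fit used no pairing, which this correlation does not exclude. With the replicate block the members at an unadjusted p under 0.05 were 0 higher and 2 lower (1 and 2 without it). The further genes were 2 higher and 0 lower (1 and 1 without it). Of all 22746 probe sets the block called 625 higher and 886 lower at that threshold (757 and 931 without it). The plain t-test gave 0 higher members and 0 higher further genes, beside 812 of all probe sets. Without 1 array the members ranged from 0 to 3 higher and from 0 to 3 lower, and the further genes from 0 to 2 either way. With the trend and 1 array left out, members were up to 5 higher and at least 1 lower, and further genes up to 3 either way. A fit without 1 array leaves 1 array in that group, so no conclusion is drawn from these counts. The further genes were 3 higher and 0 lower with the trend, beside 1066 and 1088 of all probe sets. They were 4 lower without the dimmest 30% (beside 858 of the probe sets kept). Among probe sets present on all 4 arrays they were 0 higher and 4 lower (beside 778 and 744 of 14261). They were 3 lower with the floor (beside 963 of all probe sets) and 0 lower after quantile normalization (beside 756). Of those present on all 4 arrays, 9 had a log2 fold change above 0.

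The median log2 fold change of the catabolic class was 0.054 without the dimmest 30%, -0.19 for genes present on all 4 arrays and 0.00 with the floor, and ran from -0.28 to 0.44 with 1 array left out. That of the targets was -0.35 without the dimmest 30% or among present genes, where only CORI3 remained, -0.52 with the floor (TAT3 -0.70, JAZ7 0.21), and -1.26 to -0.78 with 1 array left out. Directions turned for MYC2 after quantile normalization (-0.0136) and for JAR1 after median centring (0.0022). With 1 array left out the log2 fold change ran from -0.17 to 0.11 for AOS, -0.075 to 0.39 for JAZ1, -0.29 to 1.04 for JAZ9, -0.56 to 0.16 for JAZ10, -0.12 to 0.13 for MYC2, -0.92 to 0.22 for CORI3, -0.25 to 0.24 for JAR1, -0.34 to 0.0099 for MYC3 and -0.87 to 0.039 for MYC4. The cause was not tested. Every member had 1 probe set, so averaging probe sets could change none. Absent calls limit what LOX4, DAD1, JAZ5, JAZ8, JMT and the VSP probe set can show.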

Other observations

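The annotation in the workbook assigned the term response to jasmonic acid to 244 probe sets of a single locus, 22 of them among the 28 genes. Of the 205 that stood in none of the lists above, means were higher with ASP in 113 and lower in 92 (median log2 fold change 0.03), and 4 passed limma's adjusted test with the intensity trend, beside 0.317% of all probe sets, and none without it. These were PBP1, a calcium-binding partner of PINOID (1.38, adjusted p 0.0221), RD26, a NAC factor of drought and abscisic acid responses (1.15, adjusted p 0.0217), and the auxin repressor gene IAA7 (0.85, adjusted p 0.0365), all higher, and CML38, a calmodulin-like gene known from wounding and low oxygen (log2 fold change -1.47, adjusted p 0.0242), which was lower. The term response to wounding covered 267 further probe sets, 136 higher and 131 lower, with a median of 0.01 (log2), and 26 of the 28 genes carried it. Of the 267, 5 passed limma's adjusted test with the trend, beside 0.317% of all probe sets. They were CML38, RD26 and IAA7 again, AT4G10270 (-2.15, adjusted p 0.000654) and AT4G27280 (1.22, adjusted p 0.0262). The term jasmonic acid mediated signaling pathway covered 185 further probe sets, of which 0 passed with the trend. For jasmonic acid biosynthetic process 1 of 89 passed, for response to auxin 9 of 305 and for regulation of defense response 0 of 70. Terms share genes, include computational assignments and were looked up after the values of the 28 genes were seen.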
